A study of Mus musculus with 12 samples.

Results

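The genes of the Polycomb, MLL/COMPASS, BAF and NuRD complexes and other chromatin regulators, 48 of the 21883 protein-coding genes of the RefSeq table, were followed through mouse reprogramming by ATAC-seq. They were chosen by name as members of these complexes and not by a cutoff on a measured value, but earlier results of these data were known. ATAC-seq uses the Tn5 transposase, which cuts DNA where chromatin is open, so the values below are accessibility near a gene and not its expression. Every counted region that overlapped a gene's span, or lay within 10 kb of either end, was linked to it, and the reads of its regions were summed. This linked 316 of the 115000 counted regions to the 48 genes, each of which had at least 1 region and passed the filter on low counts. Values are CPM, reads relative to a library's reads in regions after trimmed-mean (TMM) scaling.

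The 12 libraries form 4 groups of 3. MEF are mouse embryonic fibroblasts that were not sorted. Stage1 cells are labelled day 6, Stage2 cells are labelled day 6 + 4, and iPSC are induced pluripotent stem cells, and these 3 groups carry the label Oct4-GFP+, a reporter of the pluripotency gene Oct4 (Pou5f1). All 4 groups have the same mixed background, C57BL/6 crossed with 129, and the labels name the procedure 3c enhanced without explaining it. How the reprogramming factors were delivered, how many embryos or iPSC lines were used and whether replicates came from separate cultures are not in the labels. The spread behind each p-value is that between these libraries and may be technical. The step from MEF to Stage1 joins the change of stage with the sort, and the 2 cannot be told apart.

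Chromatin regulators write, read or erase histone marks or slide nucleosomes. Polycomb repressive complex 2 (PRC2) methylates lysine 27 of histone H3, and Polycomb repressive complex 1 (PRC1) ubiquitinates histone H2A and compacts chromatin, which keeps developmental genes silent in pluripotent cells. MLL/COMPASS enzymes methylate lysine 4 of histone H3 at active genes, BAF complexes are ATP-driven remodellers that open chromatin, and NuRD joins a remodelling ATPase with histone deacetylases. Several of these complexes change subunits between fibroblasts and pluripotent cells, and CAF-1, Dot1l and NuRD are known from other work as barriers to reprogramming.

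Reads in regions numbered 1034936 to 6261903 per library, which is 4.49 to 5.25% of all reads in iPSC against 11.3 to 22.1% in MEF. The read density outside regions, spread evenly over them, would account for 8.93 to 19.8% of the reads in regions in MEF, 28.6 to 31.8% in Stage1, 34.1 to 45.2% in Stage2 and 45.7 to 53.8% in iPSC. Against this expected background the mean levels of the 48 genes were 1.37 to 5.10 times as high in iPSC and 2.55 to 31.2 times as high in MEF, and what part this has in the fold changes was not tested. Scaling by all reads of a library in place of the reads in regions shifted the median over all genes tested, on the log2 scale, to -0.96 for Stage1 against MEF, -0.37 for Stage2 against Stage1, -0.34 for iPSC against Stage2 and -1.70 for iPSC against MEF. Fold changes below are therefore relative to the typical gene. Accessibility summed over the 6 pluripotency marker genes was 645 to 697 CPM in Stage1 against 182 to 195 CPM in MEF, and over the 6 fibroblast markers 210 to 254 CPM in Stage1 against 554 to 568 CPM in MEF. Blood cell markers summed to 89.6 to 109.9 CPM in Stage1 against 65.3 to 69.97 CPM in MEF, and endothelial markers to 67.5 to 72.4 CPM in Stage1 against 137 to 142 CPM in MEF. The blood cell markers did not move together. Mean Ikzf1 was 61.3 CPM in Stage1 against 8.79 in MEF and Cd48 7.4 against 0.97. Csf1r fell to 9.35 from 35 CPM and Ptprc did not pass the test. In iPSC the pluripotency markers summed to 638 to 702 CPM, the fibroblast markers to 287 to 321 CPM, the blood cell markers to 112 to 129 CPM and the endothelial markers to 98.01 to 103 CPM. The part of other cell types in the results was not tested. MEF replicate 1 stood apart from the other MEF libraries, with a chi-square per degree of freedom of 2.07 and 2.14 against them and 1.20 between them, and leaving it out ended 3 of the 64 gene calls against MEF, those of Smarca4, Setdb1 and Ehmt2 given below. In bulk libraries a smaller share of cells with an open site and less opening per cell cannot be told apart.

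Most of these genes differed between Stage1 cells and MEF, in both directions, and few differed at later steps. In Stage1 against MEF, 33 of 48 passed the test (edgeR quasi-likelihood test, Benjamini-Hochberg adjusted p under 0.05), beside 64.9% of all 17503 genes tested. Of these 16 were higher, beside 32.9% of all genes, and 17 lower, beside 32%. In Stage2 against Stage1, 4 were higher and 1 lower, beside 8.24% and 7.56% of all genes and 15.8% in both directions. In iPSC against Stage2, 1 was higher and 3 lower, beside 5.59% and 3.82%, or 9.41% together. The comparison of iPSC with MEF had 13 higher and 18 lower, beside 32.9% and 32.2%, or 65.1% together. These shares are near those of all genes. The median log2 fold change over the 48 was 0.01, 0.08, -0.16 and -0.06 in these 4 comparisons, and -0.93, -0.30, -0.52 and -1.75 with scaling by all reads. The comparisons share groups, so their values are given side by side and no overlap is drawn from them. All 16 genes higher in Stage1 than in MEF were higher relative to the typical gene, but with scaling by all reads Eed, Jarid2, Kmt2d, Smarca4, Smarcc2, Setdb1, Ehmt2, Trim28 and Chaf1b turned negative. All 13 higher in iPSC than in MEF turned negative with that scaling. Each library was also left out in turn, and a call is said to be lost or passed without a library where that refit changed it. For Ring1, Bmi1, Cbx6, Kmt2b, Smarcd1, Smarcb1, Dpf2, Chd4, Mbd3, Mta2, Hdac1, Ehmt2, Suv39h2, Trim28 and Chaf1a every linked region was also linked to a neighbouring gene, so their values cannot be told apart from those of the neighbours.

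**Figure D1:**
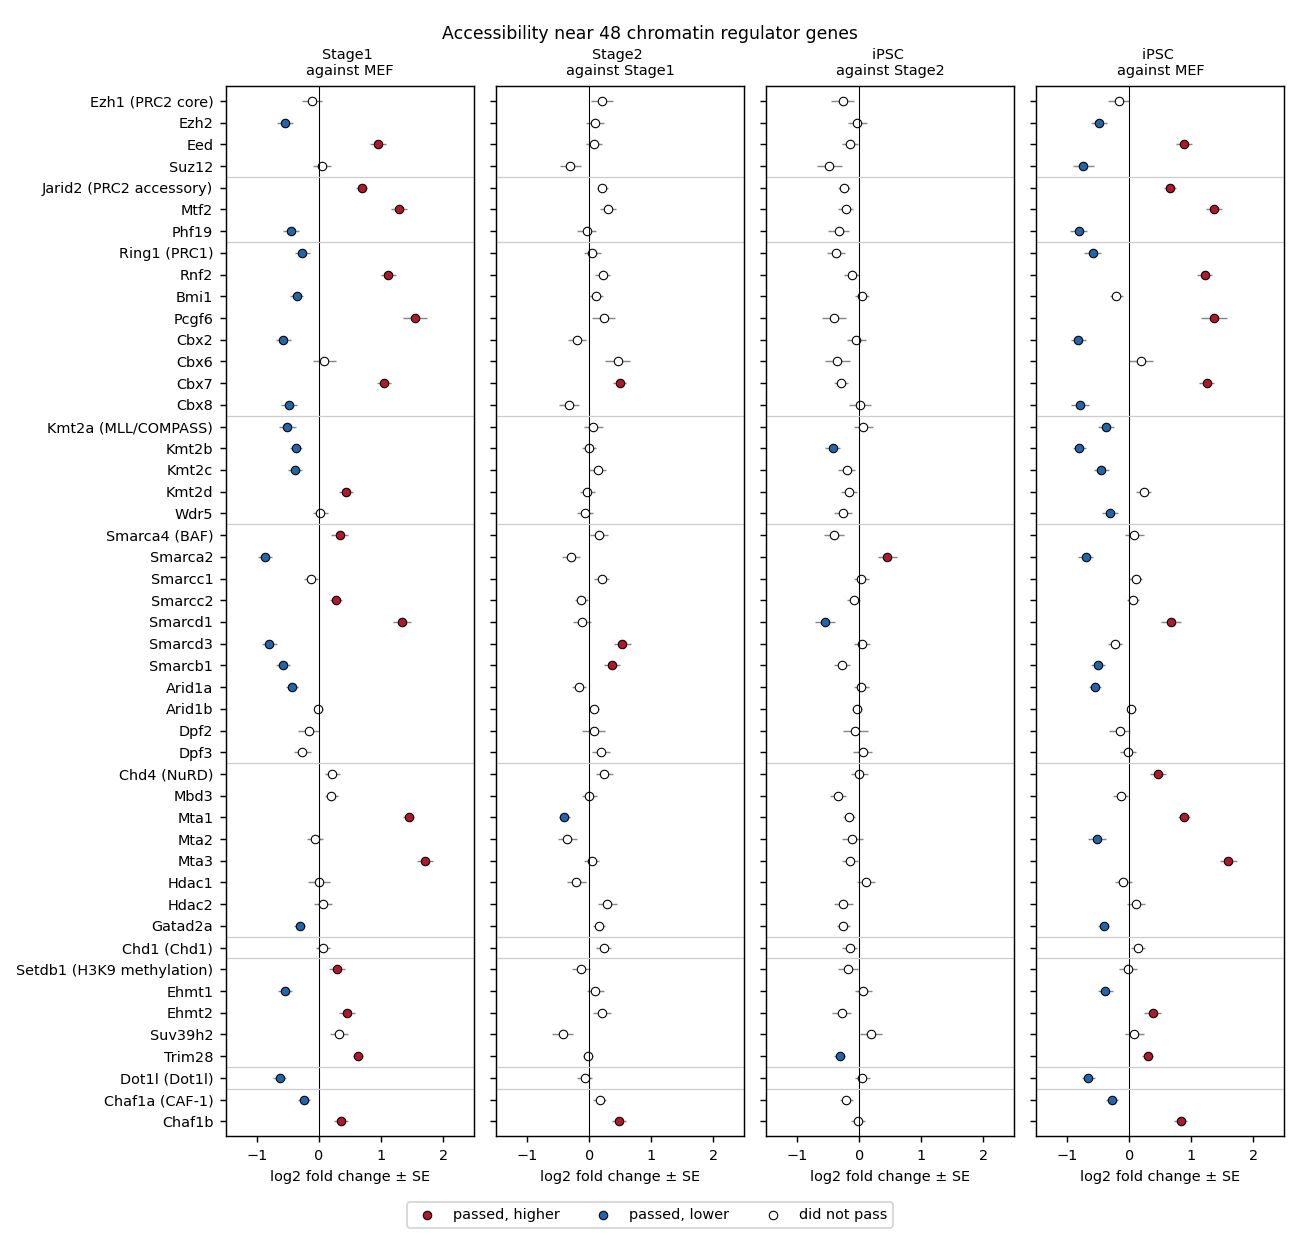
Log2 fold change of accessibility near each of the 48 genes (x axis, bars are SE) in 4 comparisons, genes grouped by complex down the y axis. Filled points passed the edgeR test (red higher, blue lower) and open points did not. Filled points are frequent in the 2 comparisons with MEF (33 and 31 genes) and scarce in the 2 between later groups (5 and 4 genes). All 13 genes higher in iPSC than in MEF turned negative with scaling by all reads.

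PRC2 split by subunit. Near the core gene Eed, whose protein binds methylated lysine 27 and activates the enzyme, and near the accessory genes Mtf2 and Jarid2, which help bring PRC2 to CpG-rich DNA, accessibility was higher in Stage1 and in iPSC than in MEF. Near Ezh2, the main methyltransferase, and the accessory gene Phf19 it was lower in Stage1 than in MEF. Mtf2 (chr5:108065660-108109219) had 27.7, 34.8 and 32.5 CPM in MEF and 81.3, 73.3 and 75.6 CPM in Stage1. Stage2 libraries had 92.6, 100.2 and 91.2 CPM, and iPSC libraries had 75.4, 85.8 and 83.4 CPM. All 3 Stage1 libraries lay above all 3 MEF libraries (log2 fold change 1.29 ± 0.13 SE, edgeR adjusted p = 1.69e-14), and Stage2 and iPSC libraries stayed above MEF. Eed (chr7:89954654-89980976) had 47.8, 45.6 and 41.9 CPM in MEF and 84.3, 80.6 and 96.8 CPM in Stage1. Stage2 libraries had 110.05, 76.2 and 91.2 CPM, and iPSC libraries had 89.7, 91.5 and 68.5 CPM. Stage1 and MEF libraries of Eed did not overlap (log2 fold change 0.95 ± 0.12 SE, edgeR adjusted p = 3.18e-10; -0.02 with scaling by all reads). Jarid2 (chr13:44730774-44921643), which also binds RNA and tunes the enzyme, had 106, 125 and 145 CPM in MEF and 209, 201 and 189 CPM in Stage1. Stage2 libraries had 220.1, 234 and 241 CPM, and iPSC libraries had 195, 193 and 197 CPM. Its Stage1 libraries were all above MEF (log2 fold change 0.69 ± 0.09 SE, edgeR adjusted p = 1.13e-09; -0.24 with scaling by all reads).

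Ezh2 (chr6:47530274-47595270) had 76.2, 69.6 and 71.9 CPM in MEF and 51.7, 43.98 and 52.5 CPM in Stage1. Stage2 libraries had 53.9, 57.1 and 47.7 CPM, and iPSC libraries had 49.01, 58.03 and 48.7 CPM. The 3 Stage1 libraries were all below the 3 MEF libraries (log2 fold change -0.55 ± 0.13 SE, edgeR adjusted p = 0.000118), and the later steps, 0.09 ± 0.15 in Stage2 against Stage1 and -0.03 ± 0.15 in iPSC against Stage2, did not pass the test. In iPSC it was again below MEF (log2 fold change -0.48 ± 0.13 SE, edgeR adjusted p = 0.000786). Ezh1, the paralog used mostly in cells that do not divide, did not pass in any of the 4 comparisons (-0.11 ± 0.16 in Stage1 against MEF). Suz12, the scaffold of the complex, and Phf19 had 1 linked region each. Suz12 (chr11:79993106-80034123) had 40.2, 44.98 and 36.1 CPM in MEF and 37.2, 46.7 and 43.1 CPM in Stage1. Stage2 libraries had 28.6, 36.3 and 38.6 CPM, and iPSC libraries had 24.9, 22.1 and 26.8 CPM. Its Stage1 and MEF libraries overlapped (0.05 ± 0.15, adjusted p = 0.803 by edgeR), but the 3 iPSC libraries were all below MEF (log2 fold change -0.74 ± 0.17 SE, edgeR adjusted p = 0.000166). Phf19 (chr2:34893752-34914353) had 69.97, 65.1 and 68.2 CPM in MEF and 47.1, 54.97 and 47.5 CPM in Stage1. Stage2 libraries had 43.8, 46.7 and 55.4 CPM, and iPSC libraries had 45.99, 35.96 and 31.8 CPM. All Stage1 libraries were below MEF (log2 fold change -0.45 ± 0.13 SE, edgeR adjusted p = 0.00177), and so were all iPSC libraries (log2 fold change -0.82 ± 0.14 SE, edgeR adjusted p = 7.37e-07). For iPSC against MEF, the log2 fold changes were 0.88 ± 0.13 (SE, edgeR adjusted p = 8.62e-09) for Eed, 1.37 ± 0.13 (SE, edgeR adjusted p = 3.19e-15) for Mtf2 and 0.65 ± 0.10 (SE, edgeR adjusted p = 9.29e-09) for Jarid2 (-0.29 over its start regions), whereas with scaling by all reads they were -0.82, -0.31 and -1.01. Summed accessibility of the 4 core genes was 191 ± 5.77 CPM in MEF, 209 ± 11.4 in Stage1, 215 ± 12.4 in Stage2 and 189 ± 14.5 in iPSC (SD, n = 3), and of the 3 accessory genes 225 ± 21.2 CPM in MEF, 326 ± 12.7 in Stage1, 375 ± 16.2 in Stage2 and 314 ± 2.37 in iPSC (SD, n = 3). The means of the accessory sum were higher in each later group than in MEF, but relative to all reads of a library both sums were lower in each later group than in MEF, as were those of every complex below.

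PRC1 has catalytic subunits (Ring1, Rnf2), PCGF subunits that set the subtype (Bmi1, Pcgf6) and Cbx subunits that bind methylated lysine 27. In Stage1 against MEF, Rnf2, Pcgf6 and Cbx7 rose, Ring1, Bmi1, Cbx2 and Cbx8 fell, and Cbx6 did not pass, so members with like roles moved in opposite directions. Pcgf6 (chr19:47033617-47050939), the PCGF subunit of a variant PRC1 that silences germline genes, had 11.5, 14.1 and 8.67 CPM in MEF and 25.8, 43.98 and 34.98 CPM in Stage1. Stage2 libraries had 37.6, 38.1 and 46.99 CPM, and iPSC libraries had 30.2, 34.3 and 26.8 CPM. The lowest Stage1 library was above the highest MEF library (log2 fold change 1.54 ± 0.20 SE, edgeR adjusted p = 1.59e-10). Rnf2 (chr1:151469398-151500991), the main ligase of pluripotent cells, had 41.3, 35.2 and 36.8 CPM in MEF and 75.2, 82.5 and 88.1 CPM in Stage1. Stage2 libraries had 93.8, 95.9 and 98.2 CPM, and iPSC libraries had 96.5, 80.9 and 86.4 CPM. Stage1 libraries were again all above MEF (log2 fold change 1.11 ± 0.12 SE, edgeR adjusted p = 7.23e-13), and the later steps (0.22 ± 0.12 in Stage2 against Stage1 and -0.12 ± 0.12 in iPSC against Stage2) did not pass the test.

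Cbx7 (chr15:79915804-79971143), the main Cbx subunit of pluripotent cells, had 45.9, 53.4 and 56.3 CPM in MEF and 119, 98.9 and 101 CPM in Stage1. Stage2 libraries had 147, 133 and 168 CPM, and iPSC libraries had 109, 125 and 133 CPM. It passed in Stage1 against MEF (log2 fold change 1.05 ± 0.11 SE, edgeR adjusted p = 7.76e-13) and again in Stage2 against Stage1 (log2 fold change 0.49 ± 0.11 SE, edgeR adjusted p = 0.000955; -0.12 over start regions), and its iPSC libraries were all above MEF (log2 fold change 1.25 ± 0.11 SE, edgeR adjusted p = 1.01e-15). Cbx2 and Cbx8, Cbx subunits of differentiating cells that lie next to each other on chromosome 11, averaged 66.5 ± 9.99 and 52.6 ± 9.52 CPM in Stage1, against 98.9 ± 11.97 and 73.6 ± 9.97 CPM in MEF (SD, n = 3). They share 3 regions, so their falls of -0.58 ± 0.12 (SE, edgeR adjusted p = 2.42e-05) and -0.49 ± 0.13 (SE, edgeR adjusted p = 0.00105) are not separate measurements, and Cbx8 did not pass without Stage1 replicate 3 (-0.32, edgeR adjusted p = 0.0617) and was 0.13 over regions of a single gene. The fall of Ring1 (-0.27 ± 0.12 SE, edgeR adjusted p = 0.0427) was lost without MEF replicate 2 or 3 or Stage1 replicate 1 or 3 (-0.16 to -0.30, edgeR adjusted p 0.0726 to 0.295). Bmi1, which represses the senescence locus Cdkn2a, fell (log2 fold change -0.36 ± 0.10 SE, edgeR adjusted p = 0.00185), though over the gene span without the 10 kb it was 0.0061. In iPSC against MEF its log2 fold change was -0.21 ± 0.11 and passed only without iPSC replicate 2 (-0.29, edgeR adjusted p = 0.0378). Also in iPSC against MEF, Pcgf6 and Rnf2 rose, with log2 fold changes of 1.37 ± 0.21 (SE, edgeR adjusted p = 3.1e-08) and 1.22 ± 0.12 (SE, edgeR adjusted p = 5.12e-14). Ring1, Cbx2 and Cbx8 fell, with log2 fold changes of -0.59 ± 0.13 (SE, edgeR adjusted p = 7.07e-05), -0.82 ± 0.13 (SE, edgeR adjusted p = 6.46e-08) and -0.80 ± 0.14 (SE, edgeR adjusted p = 1.81e-06). With scaling by all reads the rises became -0.32 for Pcgf6, -0.49 for Rnf2 and -0.44 for Cbx7. The 8 genes together summed to 409 ± 18.2 CPM in MEF, 464 ± 10.4 in Stage1, 536 ± 26.97 in Stage2 and 470.3 ± 10.9 in iPSC (SD, n = 3).

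**Figure D2:**
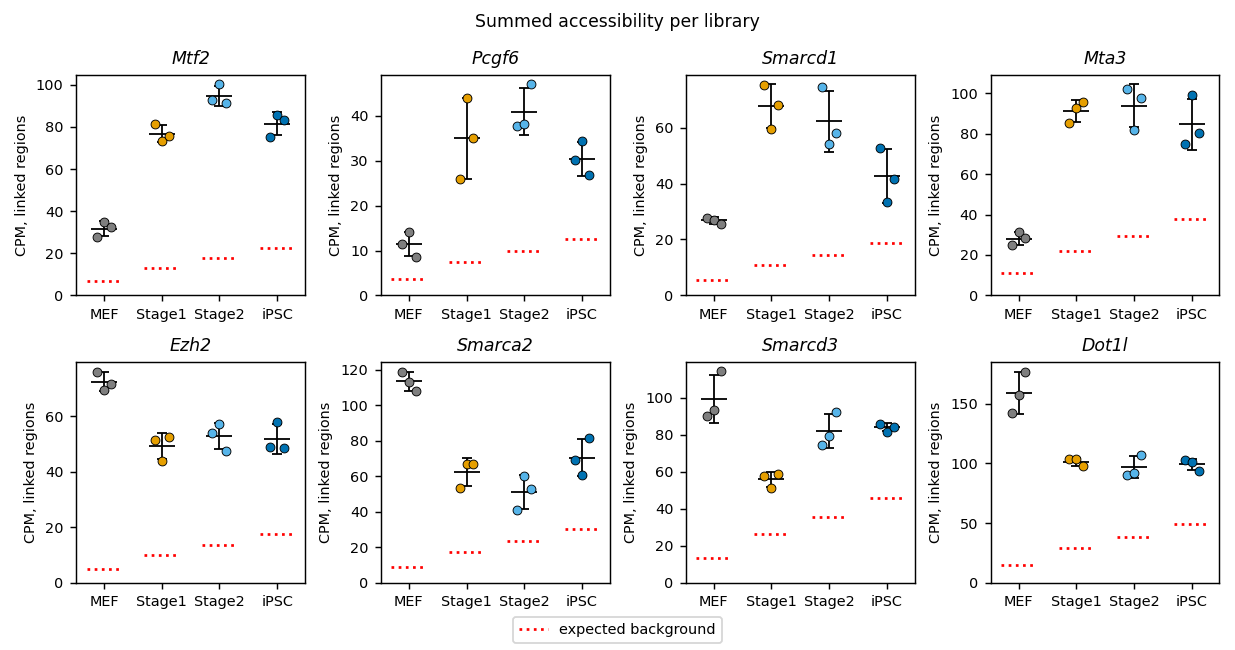
Summed CPM of linked regions in each of the 12 libraries for 8 genes (points), with the mean and SD of each group (bars) and the level expected from reads outside regions (red dotted line). Mtf2, Pcgf6, Smarcd1 and Mta3 are above MEF in every Stage1 library and Ezh2, Smarca2, Smarcd3 and Dot1l are below MEF in every Stage1 library, and the background line climbs from MEF to iPSC.

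The MLL/COMPASS genes had 3 falls and 1 rise among 5 in Stage1 against MEF, beside 32% and 32.9% of all genes, and 4 falls and no rise in iPSC against MEF, beside 32.2% and 32.9%. In Stage1 against MEF, the methyltransferase genes Kmt2a, Kmt2b and Kmt2c fell, Kmt2d rose and Wdr5, a core scaffold of all these complexes, did not pass (0.02 ± 0.12). Over start regions alone, however, Wdr5 fell in that comparison (-0.71, edgeR adjusted p = 0.00274). Kmt2b (chr7:30568855-30589056), which acts at CpG-rich promoters, had 124, 138 and 135 CPM in MEF and 106, 98.03 and 101 CPM in Stage1. Stage2 libraries had 103, 97.7 and 104 CPM, and iPSC libraries had 82.2, 70.3 and 73.5 CPM. Its groups did not overlap in Stage1 against MEF (log2 fold change -0.38 ± 0.10 SE, edgeR adjusted p = 0.000646), in iPSC against Stage2 (log2 fold change -0.43 ± 0.12 SE, edgeR adjusted p = 0.0172) or in iPSC against MEF (log2 fold change -0.81 ± 0.11 SE, edgeR adjusted p = 7.93e-10). The fall of iPSC against Stage2 was lost without Stage2 replicate 1 or iPSC replicate 2 (-0.39 to -0.41, edgeR adjusted p 0.0605 to 0.0862). Kmt2a (chr9:44803355-44881352), the founding MLL gene, had 63.95, 91.9 and 80.9 CPM in MEF and 66.8, 47.6 and 50.6 CPM in Stage1. Stage2 libraries had 56.1, 63.9 and 52.6 CPM, and iPSC libraries had 65.6, 52.3 and 63.6 CPM. The Stage1 and MEF libraries overlapped although the test was passed (log2 fold change -0.51 ± 0.13 SE, edgeR adjusted p = 0.00069), and the fall in iPSC against MEF (-0.38 ± 0.14 SE, edgeR adjusted p = 0.0123) was lost without MEF replicate 2 or iPSC replicate 2 (-0.25 to -0.29, edgeR adjusted p 0.0915 to 0.115).

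Kmt2c (chr5:25271795-25498855), a methyltransferase that acts at enhancers, had 80.6, 97.98 and 78.4 CPM in MEF and 58.5, 72.4 and 67.5 CPM in Stage1. Stage2 libraries had 75.8, 65.8 and 76.4 CPM, and iPSC libraries had 55.8, 71.9 and 61.6 CPM. It fell in Stage1 against MEF (log2 fold change -0.39 ± 0.12 SE, edgeR adjusted p = 0.00352) and in iPSC against MEF (log2 fold change -0.45 ± 0.12 SE, edgeR adjusted p = 0.00111), but the Stage1 call was lost without MEF replicate 2 (-0.26, edgeR adjusted p = 0.0737). Kmt2d, its partner at enhancers, rose in Stage1 against MEF (log2 fold change 0.43 ± 0.11 SE, edgeR adjusted p = 0.000727; -0.51 with scaling by all reads) with overlapping libraries. Its sign also turned over start regions (-0.40), over the gene span without the 10 kb (-0.074) and over regions of a single gene (-0.27). Kmt2d in iPSC against MEF (0.23 ± 0.12) passed only without MEF replicate 3 (0.28, edgeR adjusted p = 0.0445). Wdr5 fell in iPSC against MEF (-0.31 ± 0.13 SE, edgeR adjusted p = 0.0284), a call lost without MEF replicate 2 or iPSC replicate 1 (-0.27 to -0.29, edgeR adjusted p 0.0832 to 0.097). The 5 genes summed to 447 ± 44.6 CPM in MEF, 397 ± 16.7 in Stage1, 401 ± 8.08 in Stage2 and 345 ± 9.34 in iPSC (SD, n = 3). The iPSC sum was below that of MEF, and the Stage1 and Stage2 sums lay between the 2.

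BAF genes moved in both directions. Smarca2 and Smarca4 encode the alternative ATPases Brm and Brg1, of which pluripotent cells use Brg1, and Smarcd1 and Smarcd3 encode alternative BAF60 subunits, the second known from heart and muscle. In Stage1 against MEF, Smarcd1, Smarca4 and Smarcc2 rose and Smarca2, Smarcd3, Smarcb1 and Arid1a fell, and the remaining 4 (Smarcc1, Arid1b, Dpf2, Dpf3) did not pass. Smarca2 (chr19:26605073-26778321) had 119, 113 and 108 CPM in MEF and 53.2, 66.9 and 66.8 CPM in Stage1. Stage2 libraries had 40.99, 60.2 and 52.6 CPM, and iPSC libraries had 69.4, 60.5 and 81.5 CPM. Its Stage1 libraries were all below MEF (log2 fold change -0.87 ± 0.12 SE, edgeR adjusted p = 1.11e-09), and its iPSC libraries were below MEF (log2 fold change -0.70 ± 0.12 SE, edgeR adjusted p = 3.65e-07) but above Stage2 (log2 fold change 0.45 ± 0.15 SE, edgeR adjusted p = 0.0368). That rise in iPSC against Stage2 was lost without Stage2 replicate 1 or 3 or iPSC replicate 1 or 3 (0.30 to 0.47, edgeR adjusted p 0.061 to 0.261). Smarca4 (chr9:21616106-21704230) had 36.8, 43.2 and 44.8 CPM in MEF and 56.98, 43.1 and 53.7 CPM in Stage1. Stage2 libraries had 65.7, 49.8 and 57.5 CPM, and iPSC libraries had 46.7, 38.4 and 45.7 CPM. The groups overlapped, the rise in Stage1 against MEF was small (log2 fold change 0.33 ± 0.14 SE, edgeR adjusted p = 0.0352; -0.62 with scaling by all reads) and it was lost without MEF replicate 1 or Stage1 replicate 1 or 3 (0.24 to 0.29, edgeR adjusted p 0.133 to 0.17).

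Smarcd1 (chr15:99702287-99713995) had 27.9, 26.99 and 25.6 CPM in MEF and 75.2, 59.6 and 68.1 CPM in Stage1. Stage2 libraries had 74.7, 54.1 and 58.2 CPM, and iPSC libraries had 52.8, 33.5 and 41.7 CPM. Every Stage1 library was above every MEF library (log2 fold change 1.33 ± 0.14 SE, edgeR adjusted p = 5.62e-13), and the level in iPSC was again below Stage2 (log2 fold change -0.55 ± 0.16 SE, edgeR adjusted p = 0.0239) but above MEF (log2 fold change 0.67 ± 0.16 SE, edgeR adjusted p = 0.000286; -1.03 with scaling by all reads). The fall in iPSC against Stage2 was lost without Stage2 replicate 1 or iPSC replicate 2 or 3 (-0.38 to -0.55, edgeR adjusted p 0.0614 to 0.21), and the rise in iPSC against MEF was 0.44 without iPSC replicate 1 and -0.14 over start regions. Smarcd3 (chr5:24592622-24624456) had 90.4, 93.7 and 114 CPM in MEF and 57.7, 51.3 and 58.7 CPM in Stage1. Stage2 libraries had 74.7, 79.3 and 92.6 CPM, and iPSC libraries had 85.9, 81.7 and 84.4 CPM. It fell in Stage1 against MEF (log2 fold change -0.80 ± 0.12 SE, edgeR adjusted p = 1.72e-08) and rose in Stage2 against Stage1 (log2 fold change 0.54 ± 0.14 SE, edgeR adjusted p = 0.0029), the largest fold change of the 48 in that step. In iPSC against MEF its log2 fold change was -0.22 ± 0.11 and passed only without MEF replicate 1 or 2 (-0.28 to -0.29, edgeR adjusted p 0.0243 to 0.041).

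Smarcb1 (chr10:75896769-75921614), the core subunit also called Snf5, had 98.2, 89.6 and 103 CPM in MEF and 68.4, 56.8 and 66.2 CPM in Stage1. Stage2 libraries had 80.3, 84.8 and 82.8 CPM, and iPSC libraries had 74.6, 58.03 and 71.5 CPM. The falls in Stage1 against MEF (-0.59 ± 0.11 SE, edgeR adjusted p = 7.15e-06) and in iPSC against MEF (-0.50 ± 0.12 SE, edgeR adjusted p = 0.000124) stood on either side of a rise in Stage2 against Stage1 (0.36 ± 0.13 SE, edgeR adjusted p = 0.0428), which was -0.02 with scaling by all reads and was lost without Stage1 replicate 2 or 3 or Stage2 replicate 1 or 2 or 3 (0.30 to 0.39, edgeR adjusted p 0.0641 to 0.171). Arid1a, a DNA-binding subunit of the canonical complex, fell in Stage1 against MEF (log2 fold change -0.43 ± 0.10 SE, edgeR adjusted p = 9.27e-05) and in iPSC against MEF (log2 fold change -0.55 ± 0.10 SE, edgeR adjusted p = 2.68e-06). Smarcc2, a scaffold subunit scarce in pluripotent BAF, rose in Stage1 against MEF (log2 fold change 0.28 ± 0.09 SE, edgeR adjusted p = 0.00702; -0.67 with scaling by all reads) and was 0.06 ± 0.10 in iPSC against MEF, which did not pass. The 11 genes summed to 1180.2 ± 24.1 CPM in MEF, 1057 ± 27.02 in Stage1, 1107 ± 10.1 in Stage2 and 1070.5 ± 38.98 in iPSC (SD, n = 3).

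NuRD genes included the largest rise of the 48 in Stage1 against MEF, at the MTA subunits that hold the complex together. Mta3 and Mta1 rose, Gatad2a fell and the other 5 genes did not pass in that comparison. Mta3 (chr17:83706163-83823715) had 24.8, 31.3 and 28.2 CPM in MEF and 85.1, 92.5 and 95.6 CPM in Stage1. Stage2 libraries had 102, 81.7 and 97.5 CPM, and iPSC libraries had 74.6, 98.9 and 80.5 CPM. The lowest Stage1 library was above the highest MEF library (log2 fold change 1.70 ± 0.13 SE, edgeR adjusted p = 1.13e-19), and Mta3 was the 1 gene of the 48 that was still called higher with scaling by all reads (0.75), beside 7.56% of all genes. The iPSC libraries of Mta3 were all above MEF as well (log2 fold change 1.60 ± 0.13 SE, edgeR adjusted p = 2.26e-17; -0.08 with scaling by all reads). Mta1 (chr12:113098248-113137206) had 109.5, 88.8 and 104 CPM in MEF and 265, 292 and 265 CPM in Stage1. Stage2 libraries had 211, 207 and 203 CPM, and iPSC libraries had 205, 170.0 and 179 CPM. It rose in Stage1 against MEF (log2 fold change 1.44 ± 0.09 SE, edgeR adjusted p = 4.58e-24), fell in Stage2 against Stage1 (log2 fold change -0.40 ± 0.09 SE, edgeR adjusted p = 0.000915) and stayed above MEF in iPSC (log2 fold change 0.88 ± 0.10 SE, edgeR adjusted p = 8.87e-13; -0.83 with scaling by all reads). Mta2, the third MTA gene, did not pass in Stage1 against MEF (-0.06 ± 0.13) and fell in iPSC against MEF (-0.53 ± 0.15 SE, edgeR adjusted p = 0.00123).

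Chd4 (chr6:125095980-125130591), the ATPase of NuRD, had 49.7, 60.04 and 50.2 CPM in MEF and 56.2, 68.7 and 62.5 CPM in Stage1. Stage2 libraries had 65.1, 79.3 and 77.1 CPM, and iPSC libraries had 79.2, 67.8 and 73.5 CPM. It did not pass in Stage1 against MEF (0.22 ± 0.13) except without MEF replicate 2 (0.33, edgeR adjusted p = 0.0319), and rose in iPSC against MEF (log2 fold change 0.46 ± 0.13 SE, edgeR adjusted p = 0.00107; -1.23 with scaling by all reads, -0.078 over start regions and -0.079 over the gene span without the 10 kb). Mbd3, the methyl-CpG-binding domain subunit, was 0.20 ± 0.11 in Stage1 against MEF and passed only without MEF replicate 3 (0.27, edgeR adjusted p = 0.0462). In iPSC against Stage2, Mbd3 was -0.34 ± 0.13 and passed only without iPSC replicate 1 (-0.48, edgeR adjusted p = 0.0483). Gatad2a, which links Mbd3 to Chd4, fell in Stage1 against MEF (log2 fold change -0.31 ± 0.09 SE, edgeR adjusted p = 0.00166), a call lost without Stage1 replicate 2 (-0.21, edgeR adjusted p = 0.0519), and in iPSC against MEF (log2 fold change -0.41 ± 0.09 SE, edgeR adjusted p = 6.75e-05). In Stage2 against Stage1 it was 0.15 ± 0.10 and passed only without Stage1 replicate 1 (0.28, edgeR adjusted p = 0.045). The deacetylase genes Hdac1 and Hdac2 did not pass in any comparison, with 0.07 ± 0.14 for Hdac2 in Stage1 against MEF and -0.10 ± 0.13 for Hdac1 in iPSC against MEF. Chd1, a separate remodeller tied to open chromatin in pluripotent cells, was 0.06 ± 0.11 in Stage1 against MEF and 0.14 ± 0.11 in iPSC against MEF, neither past the test. The 8 NuRD genes summed to 666 ± 11.2 CPM in MEF, 878 ± 26.03 in Stage1, 839 ± 22.4 in Stage2 and 741 ± 34.8 in iPSC (SD, n = 3).

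Of the genes that methylate lysine 9 of histone H3, or recruit that machinery, Trim28, Ehmt2 and Setdb1 rose and Ehmt1 fell in Stage1 against MEF. Trim28 (chr7:13024152-13031032), the corepressor also called Kap1 that brings Setdb1 to retroviral elements, had 170.02, 166 and 156 CPM in MEF and 266, 250.1 and 249 CPM in Stage1. Stage2 libraries had 272, 242 and 241 CPM, and iPSC libraries had 209.6, 212 and 184 CPM. Stage1 libraries were all above MEF (log2 fold change 0.63 ± 0.08 SE, edgeR adjusted p = 6.1e-10; -0.33 with scaling by all reads), and iPSC libraries were below Stage2 (log2 fold change -0.31 ± 0.09 SE, edgeR adjusted p = 0.0203) and above MEF (log2 fold change 0.30 ± 0.09 SE, edgeR adjusted p = 0.00232; -1.40 with scaling by all reads). The fall in iPSC against Stage2 was lost without Stage2 replicate 1 or iPSC replicate 3 (-0.25 to -0.27, edgeR adjusted p 0.0925 to 0.132). Ehmt1 (chr2:24790769-24919643), which encodes GLP, had 87.5, 86.2 and 81.97 CPM in MEF and 56.2, 53.1 and 64.3 CPM in Stage1. Stage2 libraries had 56.7, 64.5 and 67.3 CPM, and iPSC libraries had 63.3, 71.9 and 60.6 CPM. It fell in Stage1 against MEF (log2 fold change -0.55 ± 0.12 SE, edgeR adjusted p = 3.91e-05) and in iPSC against MEF (log2 fold change -0.39 ± 0.12 SE, edgeR adjusted p = 0.00347).

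Ehmt2, which encodes G9a, the partner of GLP, rose in Stage1 against MEF (log2 fold change 0.45 ± 0.14 SE, edgeR adjusted p = 0.00283; -0.49 with scaling by all reads), but over start regions it fell (-0.75, edgeR adjusted p = 0.00701). Its rise in iPSC against MEF (log2 fold change 0.37 ± 0.14 SE, edgeR adjusted p = 0.0172; -1.30 with scaling by all reads and -0.56 over start regions) was lost without MEF replicate 1 or iPSC replicate 3 (0.17 to 0.23, edgeR adjusted p 0.14 to 0.369). Setdb1 (chr3:95323525-95357202), the methyltransferase that Trim28 recruits, had 45.7, 49.3 and 53.4 CPM in MEF and 64.6, 53.1 and 61.2 CPM in Stage1. Stage2 libraries had 55.02, 53.5 and 56.1 CPM, and iPSC libraries had 53.5, 40.9 and 50.7 CPM. Stage1 and MEF libraries overlapped and the rise (log2 fold change 0.29 ± 0.13 SE, edgeR adjusted p = 0.0419; -0.66 with scaling by all reads, -0.20 over start regions, -0.098 over the gene span without the 10 kb and -0.11 over regions of a single gene) was lost without MEF replicate 1 or 2 or Stage1 replicate 1 or 3 (0.24 to 0.31, edgeR adjusted p 0.0539 to 0.163). Suv39h2, a methyltransferase of heterochromatin, was 0.32 ± 0.15 in Stage1 against MEF and passed only without MEF replicate 1 or 3 or Stage1 replicate 1 (0.34 to 0.44, edgeR adjusted p 0.0146 to 0.0403). In Stage2 against Stage1 it was -0.43 ± 0.17 and passed only without Stage1 replicate 1 (-0.55, edgeR adjusted p = 0.027). The 5 genes summed to 387 ± 2.95 CPM in MEF, 486 ± 16.1 in Stage1, 480.4 ± 12.2 in Stage2 and 419.6 ± 10.3 in iPSC (SD, n = 3).

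Dot1l, the sole methyltransferase of lysine 79 of histone H3, fell in Stage1 against MEF and did not pass the test at the later steps. Dot1l (chr10:80755101-80795461) had 142, 157 and 177 CPM in MEF and 103, 104 and 97.4 CPM in Stage1. Stage2 libraries had 90.4, 92.2 and 107 CPM, and iPSC libraries had 103, 101 and 93.4 CPM. Stage1 libraries were all below MEF (log2 fold change -0.64 ± 0.10 SE, edgeR adjusted p = 7.11e-08), Stage2 against Stage1 was -0.07 ± 0.12, iPSC against Stage2 was 0.05 ± 0.12, and iPSC stayed below MEF (log2 fold change -0.66 ± 0.10 SE, edgeR adjusted p = 5.95e-08). CAF-1, the chaperone that places histones behind the replication fork, had its 2 subunit genes move apart. Chaf1b (chr16:93883900-93906115), the smaller of those subunits, had 62.2, 66.5 and 62.5 CPM in MEF and 80.5, 79.7 and 84.95 CPM in Stage1. Stage2 libraries had 115, 103 and 128 CPM, and iPSC libraries had 115, 107 and 119 CPM. It rose in Stage1 against MEF (log2 fold change 0.36 ± 0.11 SE, edgeR adjusted p = 0.00377; -0.60 with scaling by all reads), in Stage2 against Stage1 (log2 fold change 0.48 ± 0.12 SE, edgeR adjusted p = 0.00171; -0.26 over start regions) and in iPSC against MEF (log2 fold change 0.83 ± 0.11 SE, edgeR adjusted p = 3.77e-10; -0.86 with scaling by all reads and -0.10 over start regions). Chaf1a (chr17:56040416-56068026), the largest CAF-1 subunit, had 143, 139 and 133 CPM in MEF and 115, 126 and 113 CPM in Stage1. Stage2 libraries had 136, 132 and 128 CPM, and iPSC libraries had 123, 113 and 106 CPM. Its fall in Stage1 against MEF was small (log2 fold change -0.24 ± 0.09 SE, edgeR adjusted p = 0.0226) and was lost without MEF replicate 2 or Stage1 replicate 1 or 3 (-0.21 to -0.23, edgeR adjusted p 0.0573 to 0.104). The fall in iPSC against MEF was -0.27 ± 0.10 (SE, edgeR adjusted p = 0.0112). Over the gene span without the 10 kb its log2 fold change in Stage1 against MEF was 0.14, which did not pass.

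Among regions that passed the filter on low counts, those at gene starts were more often lower than higher against MEF. Farther regions that passed it were more often higher than lower. Of the 316 regions, 55 lay within 1 kb of a gene start and 261 farther away, and region values were scaled in their own fit, so they do not add up exactly to the gene values. For Cbx2, Hdac1, Chd1, Kmt2b and Mta3, which had no RefSeq promoter window, either end of the gene counted as a start. Of the 18084 genes with a region, 14398 had an annotated start, and the same rule held for the others. In Stage1 against MEF, 7 of the 54 start regions tested were higher and 19 lower, beside 24% higher and 32.5% lower of all 14799 start regions tested in the genome. Of the 181 farther regions tested, 91 were higher and 52 lower, beside 44.4% and 42.4% of all 56270 farther regions tested. Of all 261 farther regions, tested or not, 113 were in the deposited MEF list alone, beside 62.7%, and 83 were missing from that list, beside 27.3%. In iPSC against MEF, 4 start regions were higher, beside 23.2% of all start regions, and 38 or 70.4% lower, beside 40.5%. Their median log2 fold change was -0.63 beside -0.27. Farther regions had 91 higher and 50 lower in that comparison, beside 45.5% and 40.9%, with a median of 0.72 beside 0.34. Among all farther regions linked to a gene 45.2% were higher and 39.3% lower, with a median of 0.37. With scaling by all reads the median of the farther regions turned to -0.67 and that of the start regions to -2.01. Restricted to start regions in all 4 deposited stage lists, 27 of 33 were lower in iPSC than in MEF, beside 47.4% of the 8709 such start regions, with medians of -0.63 and -0.36. The expected background in regions was 45.7 to 53.8% of reads in iPSC against 8.93 to 19.8% in MEF, and its part in these falls was not tested.

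**Figure D3:**
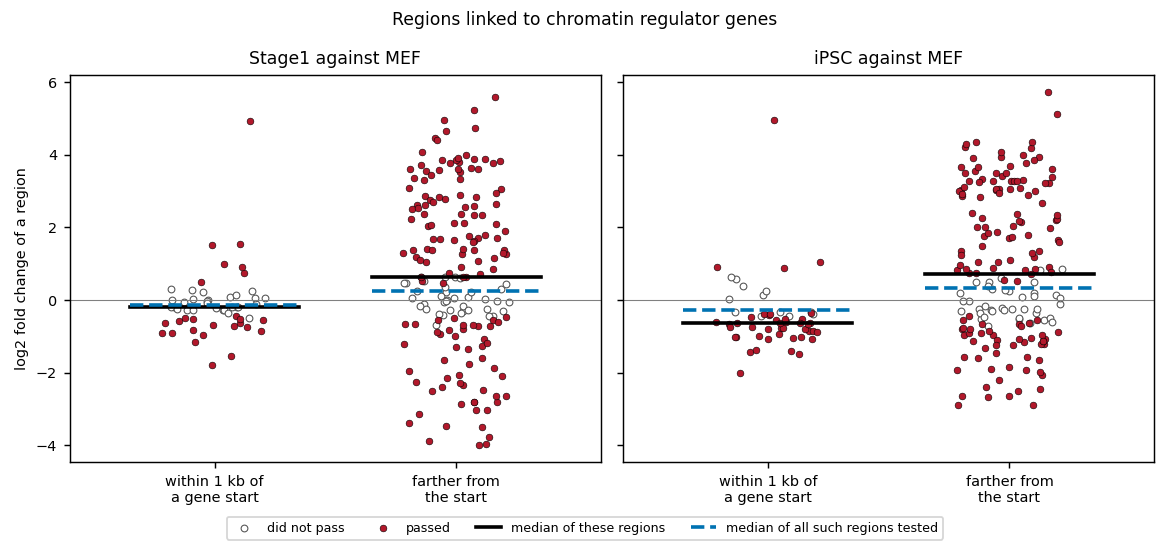
Log2 fold change (y axis) of each region linked to the 48 genes, split into regions within 1 kb of a gene start and regions farther away, in Stage1 against MEF and iPSC against MEF. Red points passed the edgeR test. Solid bars are medians of the plotted regions and dashed bars medians of all such regions tested. For farther regions the dashed bars leave out the starts of every gene, not only those of the 48. Start regions lie mostly at or below 0, and farther regions spread widely on both sides of 0.

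Between later groups few regions differed. In Stage2 against Stage1, 1 start region was higher and 1 lower of 54, beside 2.62% and 4.55%. Of 181 farther regions 18 were higher and 4 lower, beside 7.06% and 4.23% (6.21% and 4.14% of those linked to a gene). The higher count rested on having all 6 libraries: the 19 higher regions became 7 to 11 when any 1 library of the 2 groups was left out. In iPSC against Stage2, 1 start region and 1 farther region were lower beside 1.2% and 1.03% of all such regions. None was higher, beside 0.453% and 0.569%. These were the start region of Gatad2a at chr8:69996051-69996950 (log2 fold change -0.73 ± 0.17 SE, edgeR adjusted p = 0.0106) and a region near Smarcb1 at chr10:75892801-75893650 (log2 fold change -0.67 ± 0.18 SE, edgeR adjusted p = 0.0345). At an unadjusted p under 0.05, edgeR had 0 start regions and 6 farther regions higher in iPSC than in Stage2, and DESeq2 called 0 higher after adjustment. The largest rises in Stage2 against Stage1 were beside Ezh1, Cbx7 and Chaf1b. The Cbx7 region chr15:79970951-79971400 had 14.03 ± 4.29 CPM in Stage2 against 4.01 ± 1.099 in Stage1 (SD, n = 3; log2 fold change 1.82 ± 0.39 SE, edgeR adjusted p = 0.000597). The Chaf1b region chr16:93907651-93908200 had 18.1 ± 3.12 CPM in Stage2 against 5.38 ± 0.601 in Stage1 (SD, n = 3; log2 fold change 1.74 ± 0.35 SE, edgeR adjusted p = 0.000205). At Ezh1, chr11:101189401-101190050 had 1.88 ± 0.64, and the largest falls were -1.54 ± 0.44 at chr2:3450151-3450650 of Suv39h2 and -1.49 ± 0.40 at chr12:113087951-113088400 of Mta1.

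The largest changes were at single regions. Upstream of Trim28, a region at chr7:13014051-13014850, 9302 bp from the start and also within reach of Zbtb45 and Gm31649, had 0.396, 1.81 and 1.205 CPM in MEF and 59.7, 52.98 and 53.7 CPM in Stage1. Stage2 libraries had 60.1, 45.01 and 49.8 CPM, and iPSC libraries had 43.4, 36.9 and 39.96 CPM. It was almost closed in MEF and open in every later library (log2 fold change 5.59 ± 0.27 SE, edgeR adjusted p = 4.45e-34), while the region on the Trim28 start at chr7:13023751-13024850 had 49.7 ± 4.03 CPM in MEF, 51.8 ± 3.57 in Stage1, 45.9 ± 0.786 in Stage2 and 34.7 ± 7.67 in iPSC (SD, n = 3) and did not pass the test in Stage1 against MEF (0.05 ± 0.15). Trim28 has 2 regions within 1 kb of its start, and over both it rose in Stage1 against MEF (log2 fold change 0.46 ± 0.12 SE, edgeR adjusted p = 0.000613). Inside Eed, a region at chr7:89975401-89976150, in the stage lists of Stage1, Stage2 and iPSC but not of MEF, had 0.594, 0.68003 and 1.205 CPM in MEF and 22.7, 21.7 and 29.9 CPM in Stage1. Stage2 libraries had 30.9, 21.002 and 18.8 CPM, and iPSC libraries had 17.8, 19.6 and 9.99 CPM. No Stage1 library overlapped MEF (log2 fold change 4.95 ± 0.37 SE, edgeR adjusted p = 3.26e-22). Inside Mtf2, a region at chr5:108097601-108098050 had 0, 0.227 and 0.402 CPM in MEF and 10.6, 9.55 and 6.102 CPM in Stage1. Stage2 libraries had 11.02, 13.8 and 10.8 CPM, and iPSC libraries had 10.7, 14.3 and 10.9 CPM. MEF libraries were at or near 0 and Stage1 was above them (log2 fold change 5.24 ± 0.61 SE, edgeR adjusted p = 9.14e-13). These 3 are the largest rises among regions that did not overlap between Stage1 and MEF. In Mta1, the region chr12:113114651-113115650 was highest in Stage1, with 3.16 ± 2.16 CPM in MEF, 60.9 ± 12.8 in Stage1, 30.1 ± 5.24 in Stage2 and 22.5 ± 4.14 in iPSC (SD, n = 3), and fell in Stage2 against Stage1 (log2 fold change -1.01 ± 0.19 SE, edgeR adjusted p = 7.38e-05).

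Other regions were lost after MEF. Inside Ezh2, a region at chr6:47559151-47560200 listed in MEF and in no later stage had 34.5, 37.2 and 35.3 CPM in MEF and 1.51, 4.34 and 1.22 CPM in Stage1. Stage2 libraries had 2.204, 4.801 and 4.71 CPM, and iPSC libraries had 4.98, 6.03 and 8.17 CPM. Every Stage1 library was far below MEF (log2 fold change -3.99 ± 0.34 SE, edgeR adjusted p = 2.96e-19). The Ezh2 start region at chr6:47594701-47595650 had 46.7 ± 5.38 CPM in MEF, 43.7 ± 7.01 in Stage1, 41.4 ± 6.82 in Stage2 and 36.6 ± 5.13 in iPSC (SD, n = 3). In Stage1 against MEF the log2 fold change of Ezh2 was -2.80 over its farther regions. Over start regions alone, scaled in a fit of their own, it was 0.06 and did not pass. In iPSC against MEF these values were -1.52 and -0.04. Of its 3 regions tested singly, 2 were lower in iPSC than in MEF. Ehmt1 likewise held an internal region at chr2:24899151-24899900, with 30.9 ± 3.39 CPM in MEF, 1.93 ± 1.02 in Stage1, 2.01 ± 0.202 in Stage2 and 4.84 ± 1.97 in iPSC (SD, n = 3), in the MEF list alone (log2 fold change -3.96 ± 0.35 SE, edgeR adjusted p = 5.89e-18). Beside Dot1l, a region at chr10:80751151-80752550, 2653 bp from the start and shared with Ap3d1, had 78.4 ± 4.62 CPM in MEF, 22.4 ± 6.28 in Stage1, 21.5 ± 8.93 in Stage2 and 19.9 ± 4.76 in iPSC (SD, n = 3; log2 fold change -1.76 ± 0.18 SE, edgeR adjusted p = 2.56e-15), whereas the start region of Dot1l had 24.4 ± 5.39 CPM in MEF, 23.9 ± 0.444 in Stage1, 18.4 ± 2.14 in Stage2 and 15.1 ± 3.85 in iPSC and did not pass the test in Stage1 against MEF. Dot1l over start regions alone was 0.15, which also did not pass. In iPSC against MEF the 3 largest losses lay in Arid1b, at chr17:5114201-5114850 (-2.90 ± 0.45), chr17:5234851-5235550 (-2.89 ± 0.31) and chr17:5138451-5139350 (-2.68 ± 0.20).

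**Figure D4:**
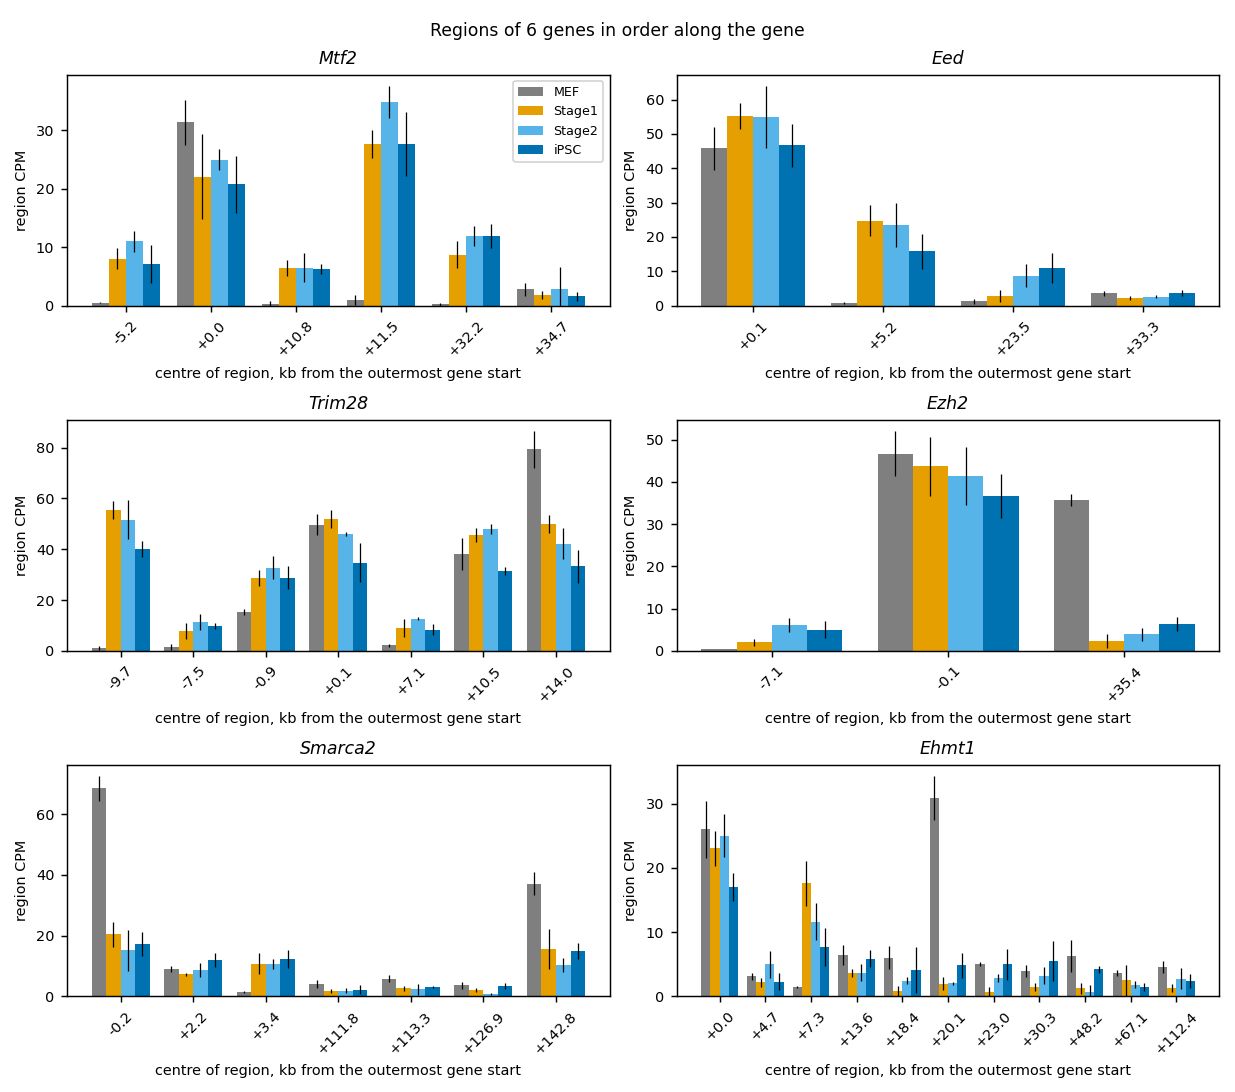
Region CPM (y axis, bars are the mean of 3 libraries and lines the SD) for every region of 6 genes, ordered by distance of the region's centre from the outermost gene start (x axis, kb, positive downstream). Mtf2, Eed and Trim28 gain regions away from the start after MEF; Ezh2 and Ehmt1 lose a region inside the gene; Smarca2 loses signal at its start.

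Regions of one gene often moved in opposite directions. Of the 46 genes with at least 2 regions tested, 25 had regions that rose and regions that fell in Stage1 against MEF, which is 54.3% beside 47.1% of 13797 such genes in the genome, and 28 did in iPSC against MEF (60.9% beside 50.9%). A gene with more regions has more room for both, and the shares were not matched for the number of regions. Arid1b, the BAF gene with the most regions (35), had 13 regions higher and 10 lower of 26 tested in Stage1 against MEF while its sum did not pass the test (-0.01 ± 0.08). Jarid2 had 7 of its 8 tested regions higher and none lower, but 10 of its 18 regions did not pass the filter on low counts, and 9 of its 18 are in the MEF list alone. Ezh1 (chr11:101191115-101226463) had a sum that did not pass, yet its start region at chr11:101226101-101226750 had 6.34 ± 0.604 CPM in MEF, 18.1 ± 2.06 in Stage1, 13.4 ± 2.01 in Stage2 and 9.39 ± 1.04 in iPSC (SD, n = 3), a rise of 1.51 ± 0.27 (SE) in Stage1 against MEF, while the internal region at chr11:101221151-101221800 had 16.04 ± 2.78 CPM in MEF, 1.58 ± 0.999 in Stage1, 2.22 ± 0.88005 in Stage2 and 3.48 ± 1.23 in iPSC (SD, n = 3), a fall of -3.39 ± 0.44 (SE). Over start regions alone, edgeR gave Ezh1 1.67 ± 0.26 (SE, adjusted p = 2.47e-08). Ezh1 has a single start region, and its value differs from the 1.51 above because the fit of start regions alone was scaled on its own. Start regions alone also turned the sign of Chaf1a (0.033) in Stage1 against MEF, a value near 0 that did not pass and may rest on that scaling. Counting start regions alone gave 10 genes higher and 10 lower of 47 in Stage1 against MEF, beside 26.7% and 23.9% of all genes with a start region tested.

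Regions near some starts gained or lost accessibility. Mtf2 has 2 annotated starts. The region on the outer start, chr5:108065251-108066000, was open in all groups, with 31.3 ± 3.87 CPM in MEF, 22.1 ± 7.22 in Stage1, 24.97 ± 1.78 in Stage2 and 20.7 ± 4.86 in iPSC (SD, n = 3). A second region, chr5:108076751-108077550, ends 615 bp before the inner start and had 0, 1.36 and 1.61 CPM in MEF and 24.9, 28.7 and 29.3 CPM in Stage1. Stage2 libraries had 38.02, 33.004 and 33.6 CPM, and iPSC libraries had 32.7, 28.6 and 21.8 CPM. It was open in Stage1 and nearly closed in MEF (log2 fold change 4.94 ± 0.35 SE, edgeR adjusted p = 2.97e-23). The Smarca2 start region, chr19:26604601-26605400, was the largest loss at a start, with 68.5 ± 4.04 CPM in MEF, 20.4 ± 4.01 in Stage1, 15.2 ± 6.72 in Stage2 and 17.3 ± 3.92 in iPSC (SD, n = 3; log2 fold change -1.78 ± 0.18 SE, edgeR adjusted p = 5.04e-15). The start regions of Cbx7, chr15:79932201-79933050 with 9.62 ± 0.0941 CPM in MEF, 28.3 ± 3.73 in Stage1, 25.2 ± 1.13 in Stage2 and 17.9 ± 2.08 in iPSC (SD, n = 3; log2 fold change 1.56 ± 0.22 SE, edgeR adjusted p = 6.62e-10), and of Ezh1, given above, opened in Stage1 against MEF and declined in mean level after it. The 250 bases before the starts of Smarca2, Cbx7 and Ezh1, which lie within these start regions, follow from RefSeq on GRCm38.p6 (the mm10 build), along the gene's strand with CpG pairs in capitals.
Smarca2 start, chr19:26604910-26605159 (+ strand): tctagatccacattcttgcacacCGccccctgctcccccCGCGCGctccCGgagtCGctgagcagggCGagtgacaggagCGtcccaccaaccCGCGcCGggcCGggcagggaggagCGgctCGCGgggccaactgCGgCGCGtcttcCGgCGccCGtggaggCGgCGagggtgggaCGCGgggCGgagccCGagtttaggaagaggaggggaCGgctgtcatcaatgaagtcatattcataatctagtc
Cbx7 start, chr15:79932647-79932896 (- strand): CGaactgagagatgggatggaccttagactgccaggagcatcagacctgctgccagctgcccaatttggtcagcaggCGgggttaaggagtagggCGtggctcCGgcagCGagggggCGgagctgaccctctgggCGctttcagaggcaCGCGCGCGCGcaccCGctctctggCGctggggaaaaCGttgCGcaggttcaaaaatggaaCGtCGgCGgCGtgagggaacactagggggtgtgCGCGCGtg
Ezh1 start, chr11:101226464-101226713 (- strand): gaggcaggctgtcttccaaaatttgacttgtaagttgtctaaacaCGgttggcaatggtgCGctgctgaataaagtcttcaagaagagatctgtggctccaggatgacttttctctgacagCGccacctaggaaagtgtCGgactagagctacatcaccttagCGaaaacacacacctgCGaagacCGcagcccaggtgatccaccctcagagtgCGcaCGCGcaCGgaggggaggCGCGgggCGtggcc
The windows hold 28 CpG pairs at Smarca2, 23 at Cbx7 and 14 at Ezh1. A link between CpG number and direction of change was not tested.

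RefSeq gave 49 promoter windows of 300 bases (250 before the start and 50 after) for 43 of the 48 genes, and none was used for Cbx2, Hdac1, Chd1, Kmt2b and Mta3. They held a median of 30 CpG pairs, beside 16 in the windows of all protein-coding genes with a region, and a median GC share of 66.3% beside 58.7%. The letters GGGCGG, as bound by SP and KLF factors, were found on either strand in 89.8% of the windows beside 53.5%. The letters CCGGAAG (ETS) were found in 14.3% beside 13.4%, CCAAT (NF-Y) in 32.7% beside 37.5% and TGANTCA (AP-1) in 6.12% beside 6.18%. CACGTG (E-box) was in 12.2% beside 8.74%, and ATTTGCAT (octamer) in 2.04% beside 1.53%. GGGCGG and CpG counts overlap, since the letters contain a CpG pair. A match describes the letters and is not evidence of binding.

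The deposited stage lists, intervals that the authors gave per stage, differed between start regions and farther ones. Of the 55 start regions, 33 (60%) were in all 4 lists, beside 54.4% of all 15998 start regions, and 51 (92.7%) were in the MEF list, 50 (90.9%) in the Stage1 list, 52 (94.5%) in the Stage2 list and 35 (63.6%) in the iPSC list. Of all start regions 87.7% were in the MEF list, 73.6% in the Stage1 list, 75.3% in the Stage2 list and 64.9% in the iPSC list. Of the 261 farther regions, 34 (13.03%) were in all 4 lists beside 4.01%, 113 (43.3%) were in the MEF list alone beside 62.7%, and 83 (31.8%) were missing from the MEF list beside 27.3%. Regions in the Stage1 list alone numbered 17 (6.51% beside 6.12%), in the Stage2 list alone 22 (8.43% beside 5.15%) and in the iPSC list alone 3 (1.15% beside 2.43%). Per gene, Mta3 had 8 of 10 regions absent from the MEF list, Rnf2 4 of 5, Mtf2 4 of 6 and Smarcd1 3 of 4, while Ehmt1 had 9 of 11 in the MEF list alone and Dot1l 6 of 10. Each list stands for a whole stage, and its marks of which replicates held an interval were not used. List lengths also differ between stages, so these shares are not tests of change.

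**Figure D5:**
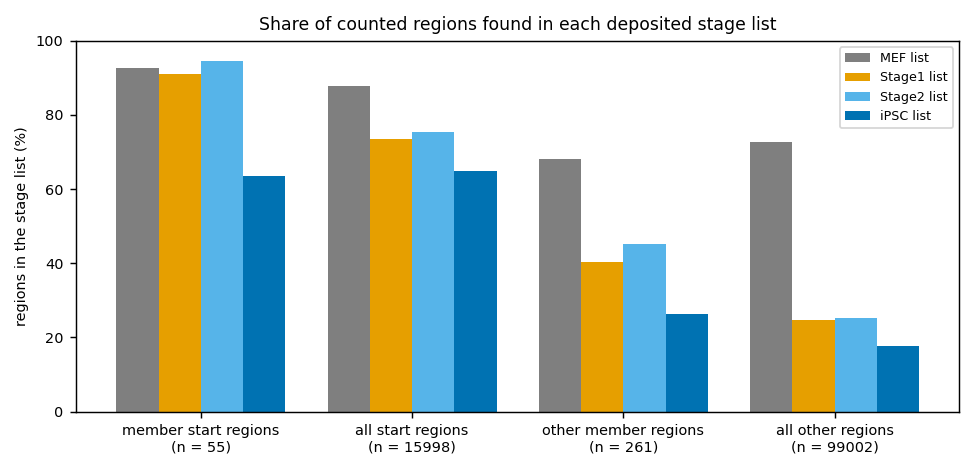
Share of regions (y axis, percent) that overlap each of the 4 deposited stage lists, for start regions and other regions of the 48 genes and of the whole region set (n on the x axis). Start regions of the 48 genes are in the MEF list in 92.7% of cases and in the iPSC list in 63.6%, beside 87.7% and 64.9% of all start regions. Their other regions are in the Stage1 and Stage2 lists in 40.2% and 45.2% of cases, beside 24.8% and 25.2% of other regions of the genome. These other regions are not like sets: those of the genome leave out the starts of every gene, those of the 48 genes only their own starts.

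Further genes of the same complexes, 68 on a fixed list of which 67 were tested, gave 20 higher and 13 lower in Stage1 against MEF, beside 32.9% and 32% of all genes tested. They gave 3 and 3 in Stage2 against Stage1, beside 8.24% and 7.56%, and 2 and 9 in iPSC against Stage2, beside 5.59% and 3.82%. For iPSC against MEF they gave 18 and 23, beside 32.9% and 32.2%. In Stage1 against MEF the largest change per list was a rise of Rbbp7, a histone-binding subunit of PRC2 and NuRD (1.26 ± 0.12 SE, edgeR adjusted p = 1.13e-14), Phc1, a PRC1 subunit that polymerises (1.02 ± 0.09 SE, edgeR adjusted p = 3.14e-16), Setd1b, an H3K4 methyltransferase (0.58 ± 0.09), Actl6b, the BAF subunit known from neurons (0.71 ± 0.20), the remodeller Ino80 (0.70 ± 0.12), the heterochromatin protein Cbx1 (0.82 ± 0.17) and the chaperone Atrx (1.09 ± 0.13). Chd3, a NuRD ATPase, fell (-0.46 ± 0.14). With scaling by all reads Rbbp7, Phc1 and Atrx kept a positive sign and Setd1b, Actl6b, Ino80 and Cbx1 turned negative. In iPSC against MEF the largest changes were falls of Rbbp4 (-1.21 ± 0.13), Smarce1 (-0.68 ± 0.20, libraries overlapping), Chd3 (-0.89 ± 0.16), Ep400 (-0.70 ± 0.12) and Suv39h1 (-0.80 ± 0.18) and rises of Phc3 (0.78 ± 0.14), Dpy30 (0.38 ± 0.11) and Atrx (0.71 ± 0.14), and these 3 rises turned negative with scaling by all reads. Rbbp4 and Rbbp7 are paralogs. Between later groups the largest were falls of Yaf2 (-0.69 ± 0.12) and Setdb2 (-0.65 ± 0.17) in Stage2 against Stage1, and of Rbbp5 (-0.74 ± 0.19) in iPSC against Stage2.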

How the data were processed

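The 12 ATAC-seq libraries (MEF, Stage1, Stage2, iPSC, 3 each) each had a deposited file of raw read counts over the same 115000 regions, which the authors did not normalize, and deposited interval lists (positions and other values) name the regions of each stage. The submitters' processing notes name the mm10 build and, with no roles, HTSeq 0.5.4p3, DESeq2 1.12.4, SAMtools 0.1.19, Bowtie2 2.2.6 and Picard 2.6.0. The peak caller, the treatment of duplicates and any shift of read ends are not given in the sources used here, so widths and counts at a site may carry these choices.

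Regions were linked to RefSeq genes (GRCm38.p6) within 10 kb of the gene span, 66.2% of them to at least 1 gene and 14828 to several, and counts were summed per gene. edgeR 4.0.16 (R 4.3.3) fitted 1 robust quasi-likelihood model of the 4 groups, with TMM on reads in regions and filterByExpr (count 10, total 15), and p-values were adjusted by Benjamini-Hochberg over all 17503 genes or all regions tested. SE is the absolute log2 fold change over the square root of F. The fit was tested on simulated data. The alternatives were DESeq2 1.42.0, scaling by all reads, no filter, other links, thinning to 1034936 reads in regions, fits of 2 groups, the replicate number as a block, and leaving out each library. Fits of start regions alone and of other links had TMM factors of their own, so their values are not exactly on the scale of the main fit. Reads in regions of 1034936 to 6261903 per library limit precision most in the shallowest.

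Values in every library are given for the 2 members per complex with the largest called, non-overlapping change in each comparison and for Ezh2, Rnf2, Kmt2a, Smarca4, Chd4, Setdb1, Dot1l and Chaf1a, with the 3 largest rises and falls of regions with mean log2 CPM of at least 2. Regions and genes shown for start sequences, opposite moves and start against farther regions were chosen after their values were seen. The members and lists were chosen with earlier results of these data known. Replicate pairs differed beyond sampling noise, with chi-square per degree of freedom of 1.02 to 2.14. The highest values were for MEF replicate 1 against MEF replicate 2 (2.07) and replicate 3 (2.14), beside 1.20 between those 2.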

Additional observations from a re-analysis of the deposited data

How the results depend on the processing

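In the order higher, lower, the calls among the 48 genes were 16 and 17 in Stage1 against MEF, 4 and 1 in Stage2 against Stage1, 1 and 3 in iPSC against Stage2, and 13 and 18 in iPSC against MEF. Among their regions they were 98 and 71, 19 and 5, 0 and 2, and 95 and 88. With scaling by all reads genes gave 1 and 36, 0 and 1, 0 and 0, and 0 and 43 in the 4 comparisons. Beside these, all 17503 genes gave 1323 and 12210, 62 and 1207, 0 and 43, and 793 and 15150. With the same scaling regions gave 65 and 110, 2 and 9, 0 lower in iPSC against Stage2, and 51 and 135. Start regions alone (47 genes) gave 10 and 10, 1 and 0, 0 and 1, and 7 and 19. Beside these, all 13853 genes with a start region tested gave 3693 and 3308, 504 and 552, 239 and 186, and 4036 and 3837. Regions of a single gene (33 genes) gave 2 and 2 in Stage2 against Stage1 and 0 higher in iPSC against Stage2. With only 2 groups in the fit, genes had 2 lower in Stage2 against Stage1 and 7 lower in iPSC against Stage2, and regions 9 lower and 1 and 6. DESeq2 gave 0 genes higher in iPSC against Stage2, 7 and 2 regions in Stage2 against Stage1 and 1 region lower in iPSC against Stage2. Without the filter regions were 11 higher in Stage2 against Stage1, 4 lower in iPSC against Stage2 and 56 lower in iPSC against MEF. The 1 gene higher in iPSC against Stage2 (Smarca2) became 0 with the gene span without the 10 kb, with regions beyond 1 kb and after thinning. Leaving out 1 library gave genes 14 to 18 and 14 to 17, 3 to 5 and 1 to 2, 0 to 1 and 0 to 4, and 12 to 14 and 17 to 19. It gave regions 97 to 107 and 53 to 77, 7 to 11 and 3 to 6, 0 to 0 and 0 to 3, and 92 to 100 and 72 to 93. The cause of these changes was not tested beyond what each setting leaves out.

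Of the 73 gene calls, the sign turned in 23 with scaling by all reads. For Stage1 against MEF these were Eed (-0.019), Jarid2 (-0.24), Kmt2d (-0.51), Smarca4 (-0.62), Smarcc2 (-0.67), Setdb1 (-0.66), Ehmt2 (-0.49), Trim28 (-0.33) and Chaf1b (-0.60), and in Stage2 against Stage1 Smarcb1 (-0.018). In iPSC against MEF they were Eed (-0.82), Jarid2 (-1.01), Mtf2 (-0.31), Rnf2 (-0.49), Pcgf6 (-0.32), Cbx7 (-0.44), Smarcd1 (-1.03), Chd4 (-1.23), Mta1 (-0.83), Mta3 (-0.085), Ehmt2 (-1.30), Trim28 (-1.40) and Chaf1b (-0.86). Over start regions alone 13 turned: Ezh2 (0.064), Kmt2d (-0.40), Setdb1 (-0.20), Ehmt2 (-0.75), Dot1l (0.15) and Chaf1a (0.033) in Stage1 against MEF, Cbx7 (-0.12) and Chaf1b (-0.26) in Stage2 against Stage1, and Jarid2 (-0.29), Smarcd1 (-0.14), Chd4 (-0.078), Ehmt2 (-0.56) and Chaf1b (-0.10) in iPSC against MEF. That fit had TMM factors of its own. Ezh2, Dot1l and Chaf1a did not pass in it in Stage1 against MEF, and their signs may rest on that scaling. The gene span without the 10 kb turned Bmi1 (0.0061), Kmt2d (-0.074), Setdb1 (-0.098) and Chaf1a (0.14) in Stage1 against MEF and Chd4 (-0.079) in iPSC against MEF. Regions of a single gene turned Cbx8 (0.13), Kmt2d (-0.27) and Setdb1 (-0.11) in Stage1 against MEF, and regions beyond 1 kb turned Kmt2c (0.25) in iPSC against MEF. Thinning to equal depth ended 14 of the 73 calls and DESeq2 8 of 72, with no sign turned by either. The replicate numbers did not pair the libraries, since same-numbered libraries correlated at -0.11 to 0.11. The replicate block gave 15 and 17 genes in Stage1 against MEF and ended 1 of the 73 calls, that of Setdb1 in Stage1 against MEF.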
